A study of Rattus norvegicus with 12 samples.

Results

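The miRs described here are 4 miRs measured in rat dorsal root ganglia (DRG), called stromal after their known links to matrix and fibroblasts. The name is a label only, since the cells that hold them in these ganglia could not be separated. The 4 are miR-29a and miR-29c of the miR-29 family, and miR-199a-3p and miR-214, which come from neighbouring genes. They were taken by assay name from the table of Ct values, in which 4 of the 5 names looked for (mmu-miR-29a, mmu-miR-29b, mmu-miR-29c, mmu-miR-199a-3p and mmu-miR-214) are listed among 154 miR assays. mmu-miR-29b was not analysed here. The rule used assay names only, but it was set with earlier results of these data known. The assays carry mouse names because the card was designed for both rodents.

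Adult male Sprague-Dawley rats had surgery on the sciatic nerve, and single ipsilateral DRG were taken at Day 23. In Sham the nerve and its branches were only exposed. In Sural-SNI, a spared nerve injury, the tibial and common peroneal branches were ligated and cut and the sural branch was left intact, whereas in Tibial-SNI the sural and common peroneal branches were cut and the tibial branch was left intact. Each of the 3 groups had 4 arrays, with a replicate 1 and a replicate 2 for L3-DRG and likewise for L4-DRG. Neurons of the sciatic nerve lie mainly in the lower of these ganglia, and L3-DRG holds fewer of them. In the paper's tracing, injured neurons were seen in L4-DRG and not in L3-DRG, where neurons of the uninjured saphenous nerve lie. Every ganglion is a mixture of neurons, glia, vessels, connective tissue and blood cells, so fewer cells of a type and less RNA per cell cannot be told apart. No source used here says which rat gave which ganglion, so p-values measure only the spread between these samples, which may be partly technical.

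A miR is a short RNA that pairs through its seed, bases 2 to 8 from the 5′ end, with messenger RNAs and lowers their output. The miR-29 family is best known for holding down collagens, elastin and other proteins of the extracellular matrix, and its level falls in many fibrotic tissues. miR-199a and miR-214 are made together from an RNA transcribed on the opposite strand of the dynamin 3 gene, are abundant in fibroblasts and other mesenchymal cells, and have been linked to fibrosis and to growth control.

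The mature sequences are shown because the seeds divide the 4 miRs differently from their gene positions. They are the RefSeq rat sequences (assembly GRCr8), which were found for 4 of the 4 assays after names without an arm were read as the 3p arm, and capitals mark the seed.

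rno-miR-29a-3p: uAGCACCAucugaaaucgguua
rno-miR-29c-3p: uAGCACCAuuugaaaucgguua
rno-miR-199a-3p: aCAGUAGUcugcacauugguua
rno-miR-214-3p: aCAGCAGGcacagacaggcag

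rno-miR-29a-3p and rno-miR-29c-3p share the seed AGCACCA and differ at 1 position, C10U, counted from the 5′ end with the base of miR-29a first. The same seed is found in 1 further entry, rno-miR-29b-3p, of the 693 mature sequences listed. The seeds of miR-199a-3p and miR-214 occur in no other listed sequence, and these miRs have only their first 4 bases, acag, in common. miR-199b-3p is known to have the same mature sequence as miR-199a-3p, so the assay named for the latter cannot separate them.

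The genes are arranged the other way round. rno-miR-29a-3p lies at chr4:60617968-60617989 on the minus strand and rno-miR-29c-3p at chr13:109099412-109099433 on the plus strand, each next to a gene for miR-29b (291 bases from Mir29b1 to Mir29a and 447 bases from Mir29b2 to Mir29c). Mir29c lies within the span of a long noncoding RNA on the same strand, LOC102550527. rno-miR-199a-3p at chr13:77116294-77116315 and rno-miR-214-3p at chr13:77121713-77121733 are both on the plus strand, their genes Mir199a2 and Mir214 are 5310 bases apart, and both are inside Dnm3, which is annotated on the minus strand. The exons of Dnm3 were not part of the annotation used, so exonic and intronic positions were not separated.

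Ct is the PCR cycle at which an assay crosses its threshold, so a lower Ct means more product. A level is given as −ΔCt, the mean Ct of the reference assays MammU6, snoRNA135 and U87 minus the Ct of the miR, on a log2 scale. The arrays of the 2 replicate numbers stood apart: the mean Ct of all miRs was 28.9 to 30.5 on the 6 arrays of replicate 1 and 27.2 to 28.4 on the 6 of replicate 2. The reference assays did not follow this shift alike, because snoRNA135 was at 31.9 to 34.0 and 28.1 to 29.6, U87 at 26.0 to 28.3 and 25.4 to 26.1, and MammU6 at 16.7 to 18.3 and 18.3 to 18.7 on the same 2 sets. Values are therefore also given against the mean of all miRs of an array and within each replicate number. As a check of the tissue, miR-182 and miR-183, which mark sensory neurons, had mean Ct values of 23.5 and 27.6.

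All 4 miRs were detected on the 12 arrays with Ct values under 35. miR-29a was the most readily detected, at a Ct of 22.7 to 26.0, followed by miR-199a-3p at 25.8 to 29.0, miR-214 at 27.1 to 31.0 and miR-29c at 27.5 to 31.4. By mean −ΔCt they ranked 9, 51, 74 and 78 among the 154 miRs. The efficiencies of the assays are not known, so this order is one of assays and not of calibrated amounts. The ranges of miR-214 and miR-29c overlapped, and the Ct of miR-29a was below that of the other 3 on each of the 12 arrays.

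**Figure D1:**
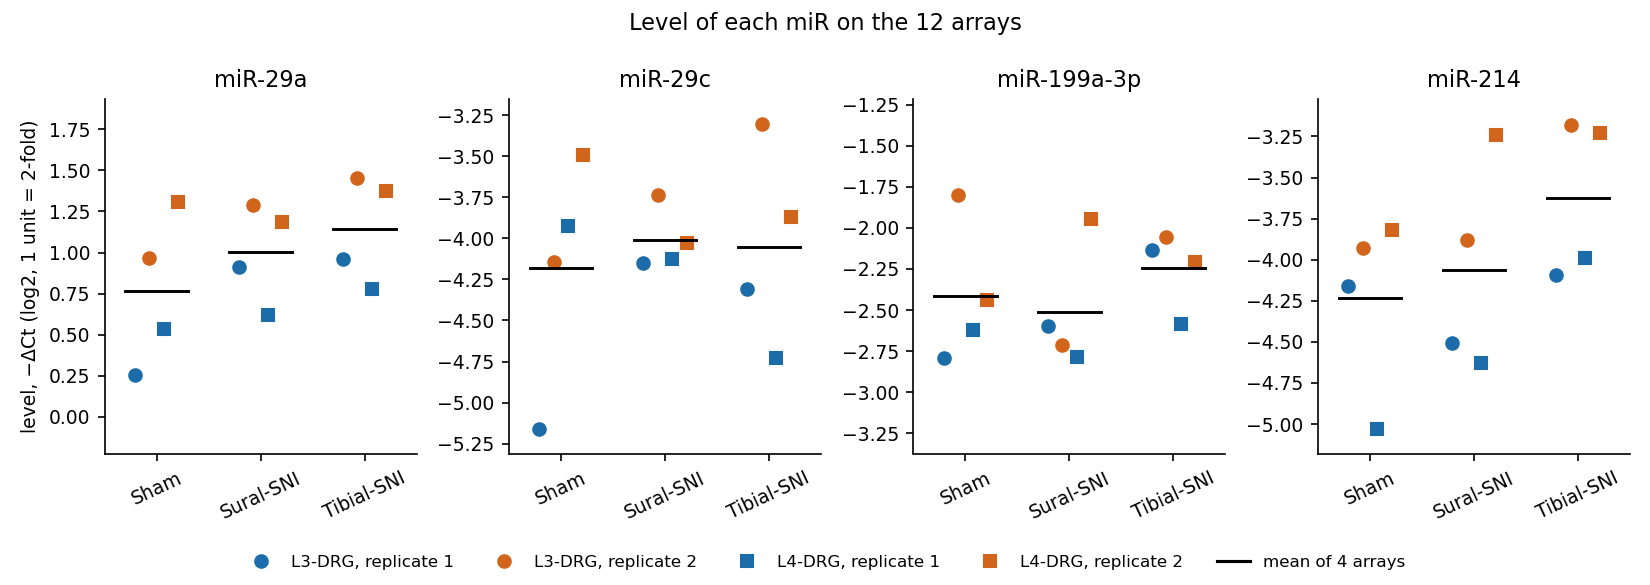
Level of miR-29a, miR-29c, miR-199a-3p and miR-214 on each of the 12 arrays, as −ΔCt on a log2 scale, by surgery (circles, L3-DRG; squares, L4-DRG; blue, replicate 1; orange, replicate 2; line, mean of 4 arrays). The vertical axes cover the same span around each miR, the 3 surgery groups overlap for every miR, and the 6 orange points of miR-29a lie above its 6 blue points, the closest being 0.97 and 0.96.

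miR-29a, whose assay had the lower Ct of the 2 family members, kept close to the mean of all miRs. Its Ct moved over 3.24 cycles, but on each array it lay 4.52 to 4.75 cycles below the mean Ct of all miRs. In Sham the distance was 4.52 and 4.53 in L3-DRG and 4.61 and 4.58 in L4-DRG (replicate 1, then replicate 2). In Sural-SNI it was 4.73 and 4.64 in L3-DRG and 4.68 and 4.53 in L4-DRG. In Tibial-SNI it was 4.61 and 4.71 in L3-DRG and 4.75 and 4.74 in L4-DRG. The SD of these 12 values was 0.0844, the smallest among the 154 miRs, where the median SD was 0.705 and the largest 2.83.

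The next smallest SDs were those of miR-30e (0.134) and miR-19b (0.172). Among the 20 miRs with the lowest mean Ct, the other 19 had SDs of 0.288 to 1.497 (median 0.706), so the small spread was not shared by all readily detected miRs. With miR-29a itself left out of the mean its SD was 0.0849 and again the smallest, within replicate 2 it was 0.0898 and the smallest, and within replicate 1 it was 0.0840 and the second smallest after 0.0737. The reference assays varied more around the same mean, with SDs of 0.393 for U87, 0.971 for snoRNA135 and 1.60 for MammU6. The SDs are a description of these 12 arrays, and no test was made of the ranks.

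**Figure D2:**
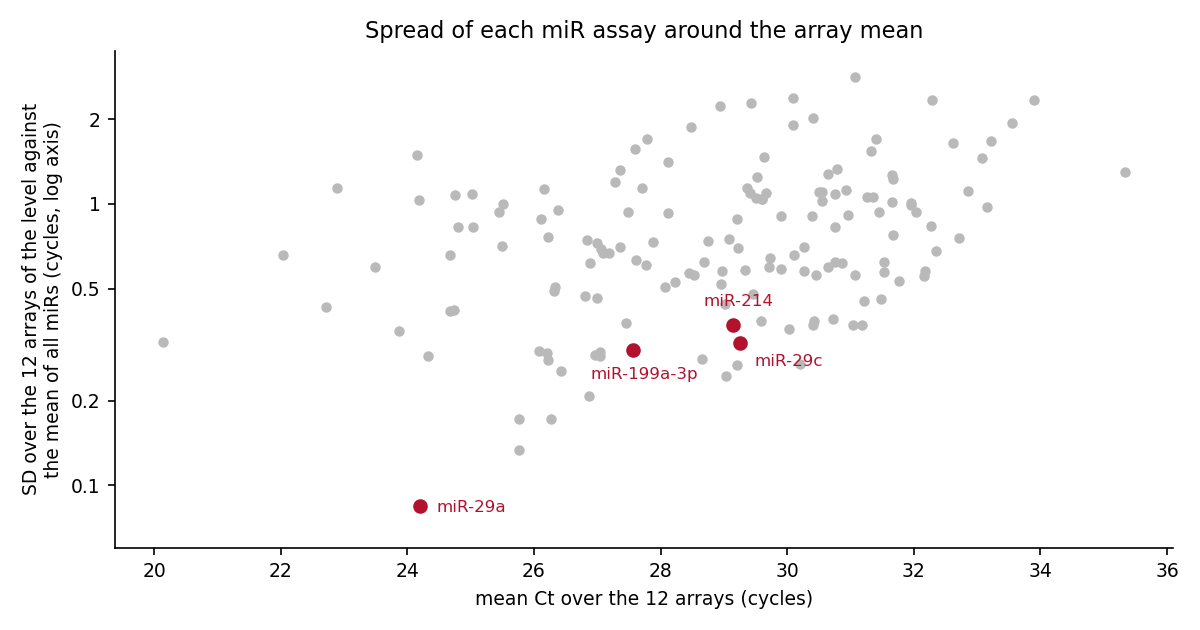
SD over the 12 arrays of each miR's level against the mean of all miRs (cycles, log axis) plotted against its mean Ct (cycles), with the 4 stromal miRs in red and the other miRs in grey. miR-29a is the lowest point at 0.0844, and miR-199a-3p, miR-29c and miR-214 lie at 0.303, 0.321 and 0.372.

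The other 3 miRs were also less variable than most, with SDs against the mean of all miRs of 0.303 for miR-199a-3p, 0.321 for miR-29c and 0.372 for miR-214. These were ranks 18, 19 and 24 of 154 from the smallest.

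For miR-29a the −ΔCt in Sham was 0.25 and 0.97 in L3-DRG and 0.54 and 1.31 in L4-DRG, in Sural-SNI it was 0.91 and 1.29 in L3-DRG and 0.62 and 1.19 in L4-DRG, and in Tibial-SNI it was 0.96 and 1.45 in L3-DRG and 0.78 and 1.38 in L4-DRG. The 3 groups overlapped. Against the Sham array with the same level and number, the log2(fold change) in Sural-SNI was 0.66 and 0.32 in L3-DRG and 0.08 and −0.12 in L4-DRG. In Tibial-SNI it was 0.71 and 0.48 in L3-DRG and 0.24 and 0.07 in L4-DRG. It was above 0 on 7 of the 8 SNI arrays (14.9% of all miRs were above 0 on at least 7), and the L3-DRG arrays had the higher values in both groups.

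The mean log2(fold change) of miR-29a over the Sural-SNI arrays was 0.24 ± 0.33 and over the Tibial-SNI arrays 0.37 ± 0.28 (SD, n = 4), a fold of 1.18 and 1.30. In the limma fit of all arrays the difference from Sham was 0.24 (SE 0.33, adjusted p = 1.00) in Sural-SNI and 0.37 (SE 0.33, adjusted p = 0.997) in Tibial-SNI. When each array was left out in turn these differences ran from 0.04, without L3-DRG Sham replicate 1, to 0.44, without L4-DRG Sham replicate 2, and for the same 2 arrays from 0.18 to 0.58. Leaving out L4-DRG Sham replicate 1, L3-DRG Sural-SNI replicate 2 or L4-DRG Sural-SNI replicate 1 also moved the first by over 1.5 times, to 0.15, 0.13 and 0.38. Against the mean of all miRs these differences were 0.08 and 0.14, with 95% intervals of −0.37 to 0.53 and −0.31 to 0.59. On that scale the Tibial-SNI arrays were above their own Sham arrays by 0.09 and 0.18 in L3-DRG and 0.13 and 0.15 in L4-DRG, and 7.14% of all miRs were above on 4 of 4. The limma interval rests in part on the spread of all miRs, which was wider than that of miR-29a, and an exact permutation test of its 4 Tibial-SNI against 4 Sham values on this scale gave p = 0.0571 (two-sided, adjusted p = 1.00 over all miRs). That test was chosen after the small spread had been seen, and the smallest p it can give is 0.0286.

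miR-29c, which differs from miR-29a at a single base, had a log2(fold change) against Sham of opposite sign in the 2 ganglia. Its −ΔCt in Sham was −5.16 and −4.14 in L3-DRG and −3.93 and −3.49 in L4-DRG. In Sural-SNI it was −4.15 and −3.74 in L3-DRG and −4.13 and −4.03 in L4-DRG, and in Tibial-SNI it was −4.31 and −3.30 in L3-DRG and −4.73 and −3.87 in L4-DRG. Thus the Sham L3-DRG arrays were below both Sham L4-DRG arrays, whereas in each SNI group the 2 ganglia overlapped.

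The log2(fold change) of miR-29c in Sural-SNI was 1.01 and 0.41 in L3-DRG and −0.20 and −0.54 in L4-DRG. In Tibial-SNI it was 0.85 and 0.84 in L3-DRG and −0.80 and −0.38 in L4-DRG. The 4 L3-DRG values were above 0 and the 4 L4-DRG values below 0, a pattern shown by 10 of the 154 miRs (6.49%), and against the mean of all miRs by 6 (3.9%), miR-29c included. Both SNI groups were set against the same 4 Sham arrays, so the 2 groups are not independent of each other.

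The means were 0.71 ± 0.43 in L3-DRG and −0.37 ± 0.24 in L4-DRG of Sural-SNI, and 0.85 ± 0.01 in L3-DRG and −0.59 ± 0.30 in L4-DRG of Tibial-SNI (SD, n = 2). Tested as a difference between the ganglia, the effect in L4-DRG minus that in L3-DRG was −1.08 (SE 0.81) in Sural-SNI and −1.43 (SE 0.81) in Tibial-SNI, with limma adjusted p-values of 0.999 and 1.00. With the DRG level and replicate number as a block the unadjusted p was 0.0431 and 0.0142, a threshold of 0.05 passed by 7.79% and 11% of all miRs, and the adjusted p was 0.575 and 0.312. Without the L3-DRG Sham array of replicate 1, which had the lowest level of miR-29c, the differences were −0.57 and −0.92. That of Tibial-SNI was also −0.93 when its own L3-DRG array of replicate 2 was left out. Neither difference passed the adjusted threshold in any fit.

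Over both ganglia miR-29c averaged 0.17 ± 0.68 in Sural-SNI and 0.13 ± 0.85 in Tibial-SNI (SD, n = 4), and its limma adjusted p against Sham was 1.00 and 0.997. The sign of the second mean is not settled, because it was −0.11 against the mean of all miRs.

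**Figure D3:**
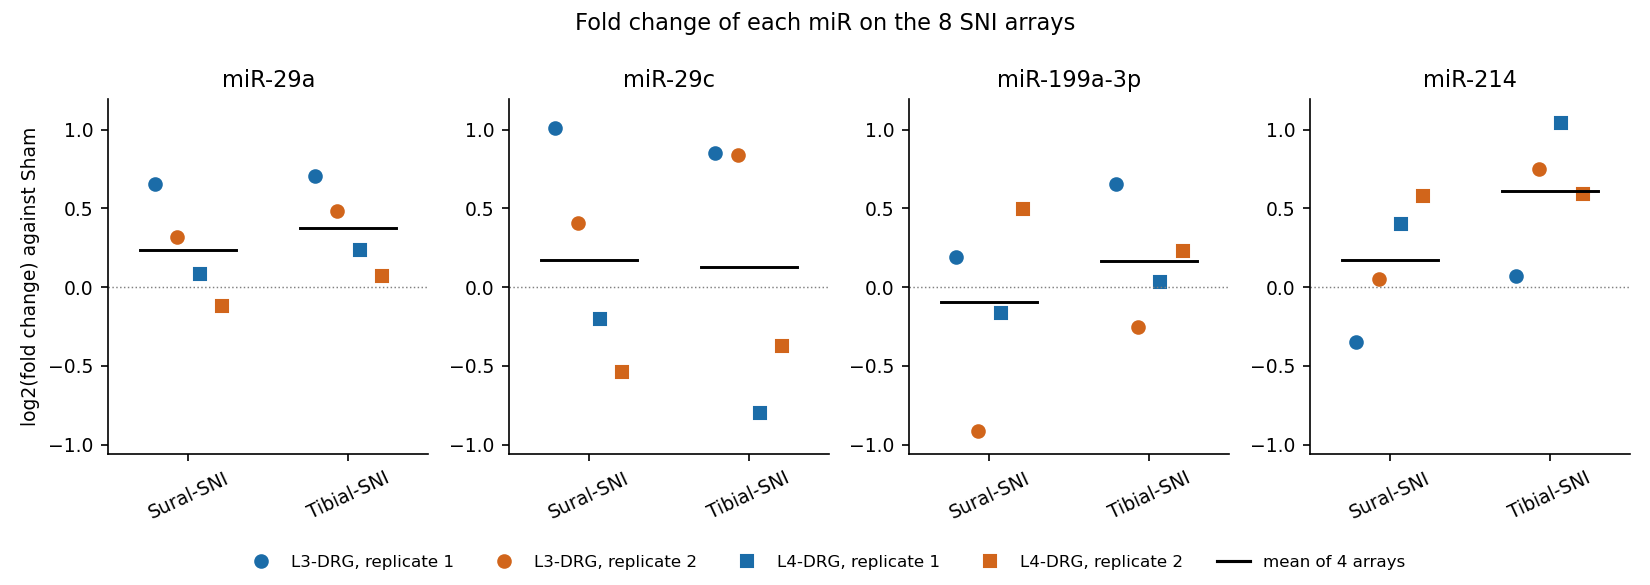
log2(fold change) of each miR on the 8 SNI arrays against the Sham array with the same level and number (circles, L3-DRG; squares, L4-DRG; blue, replicate 1; orange, replicate 2; line, mean of 4 arrays; dotted line, no difference). For miR-29c all circles lie above 0 and all squares below it, and for miR-214 the Tibial-SNI values run from 0.07 to 1.04.

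The difference in Ct of 2 assays on the same array needs no reference assay. miR-29c crossed the threshold 4.95 ± 0.41 cycles after miR-29a in Sham, 5.01 ± 0.19 in Sural-SNI and 5.19 ± 0.31 in Tibial-SNI (SD, n = 4). In Sham this distance was 5.42 and 5.11 in L3-DRG and 4.46 and 4.80 in L4-DRG, so the lag of miR-29c was longer in both L3-DRG arrays. In Tibial-SNI it was 5.27 and 4.76 in L3-DRG and 5.50 and 5.24 in L4-DRG, where the ganglia overlapped.

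Of the other pair, miR-199a-3p showed no common direction among the SNI arrays. Its −ΔCt in Sham was −2.79 and −1.80 in L3-DRG and −2.62 and −2.44 in L4-DRG, in Sural-SNI it was −2.60 and −2.71 in L3-DRG and −2.79 and −1.94 in L4-DRG, and in Tibial-SNI it was −2.14 and −2.06 in L3-DRG and −2.59 and −2.21 in L4-DRG. The groups overlapped throughout. The log2(fold change) was 0.19 and −0.91 in L3-DRG and −0.17 and 0.49 in L4-DRG of Sural-SNI, and 0.66 and −0.25 in L3-DRG and 0.03 and 0.23 in L4-DRG of Tibial-SNI. The means were −0.10 ± 0.61 and 0.17 ± 0.38 (SD, n = 4), and the limma differences from Sham had 95% intervals of −0.82 to 0.62 and −0.56 to 0.89.

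miR-214 had the highest mean log2(fold change) of the 4 in Tibial-SNI. Its −ΔCt in Sham was −4.16 and −3.93 in L3-DRG and −5.03 and −3.82 in L4-DRG. In Sural-SNI it was −4.51 and −3.88 in L3-DRG and −4.63 and −3.24 in L4-DRG, and in Tibial-SNI it was −4.09 and −3.18 in L3-DRG and −3.99 and −3.23 in L4-DRG. In each group the replicate 2 arrays had the higher values, and the groups overlapped.

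The log2(fold change) of miR-214 in Sural-SNI was −0.35 and 0.05 in L3-DRG and 0.40 and 0.58 in L4-DRG. In Tibial-SNI it was 0.07 and 0.75 in L3-DRG and 1.04 and 0.59 in L4-DRG. The 4 Tibial-SNI values were above 0, as for 18.2% of all miRs, and so were the 4 L4-DRG values of both SNI groups, as for 8.44%. Against the mean of all miRs the L3-DRG value of Tibial-SNI replicate 1 was −0.55, so 3 of the 4 were above 0 on that scale.

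For miR-214 the mean over the Sural-SNI arrays was 0.17 ± 0.41 and over the Tibial-SNI arrays 0.61 ± 0.41 (SD, n = 4), a fold of 1.13 and 1.53. The limma difference of Tibial-SNI from Sham was 0.61 (SE 0.43, 95% interval −0.35 to 1.57, adjusted p = 0.997). With the replicate block the interval was 0.10 to 1.13, the unadjusted p was 0.0243, a threshold of 0.05 passed by 9.74% of all miRs, and the adjusted p was 0.410. Without L4-DRG Sham replicate 1, on which miR-214 was lowest, the difference was 0.32. For Sural-SNI the limma adjusted p was 1.00.

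The direct comparison of Tibial-SNI with Sural-SNI is the one on which the study turned. Both injuries cut the common peroneal branch and differ in the branch that is left. The paper compared them because their pain outcomes differed: hypersensitivity of the paw lasted in Sural-SNI and receded in Tibial-SNI. In Tibial-SNI against Sural-SNI, 1 of the 154 miRs (0.649%) passed an adjusted p of 0.05, and 16 (10.4%) passed the one-tailed 0.09 that the study used. None of the 4 stromal miRs passed either in the limma fit. The paper did not rest on the arrays alone, and measured the miRs it picked from them by qPCR in 4 rats a group. Most of those, miR-133b, miR-143 and miR-145 included, were again higher in Tibial-SNI, whereas the difference in miR-325 was not reproduced. The 4 stromal miRs were not among those picked. The one-tailed p was taken on the side of each difference, so miRs lower in Tibial-SNI, such as miR-325 (−1.49), count among the 16. More miRs than the threshold's own share can therefore pass with no difference between the groups. The difference in log2(fold change) was 0.44 for miR-214 (SE 0.33, 95% interval −0.30 to 1.19), 0.26 for miR-199a-3p (SE 0.37, −0.58 to 1.11), 0.14 for miR-29a (SE 0.29, −0.51 to 0.79) and −0.04 for miR-29c (SE 0.50, −1.19 to 1.11). The Sural-SNI and Tibial-SNI arrays of one level and number share a Sham array, whose spread cancels from these differences. In this unpaired fit that spread stays in the SE and the interval, and the fit with the replicate block, given below, takes it out. The adjusted p was 0.995 for each, and the one-tailed p of miR-214 was 0.105. In the unmoderated one-tailed test of the study's methods it was 0.0884, on the other side of the 0.09 threshold, which 17 of the 154 miRs (11%) passed, and in an exact permutation test it was 0.0714. Without L3-DRG Sural-SNI replicate 1 the difference in miR-214 was 0.27. That of miR-29a ran from 0.02, without L4-DRG Sural-SNI replicate 2, to 0.28, without L3-DRG Sural-SNI replicate 1.

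In the 4 pairs of arrays with the same DRG level and number, Tibial-SNI was above Sural-SNI in 4 of 4 for miR-214, by 0.01 to 0.70, and in 4 of 4 for miR-29a, by 0.05 to 0.19. Over all miRs 9.09% were above in 4 of 4. Against the mean of all miRs, miR-214 stayed above in 4 of 4 and miR-29a in 3 of 4, against 3.25% of all miRs in 4 of 4. miR-199a-3p was above in 3 of 4 pairs and miR-29c in 2 of 4. With the replicate block the one-tailed p of miR-214 was 0.0415, under the study's threshold, as for 22.1% of all miRs in that fit, and its two-sided adjusted p was 0.776.

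**Figure D4:**
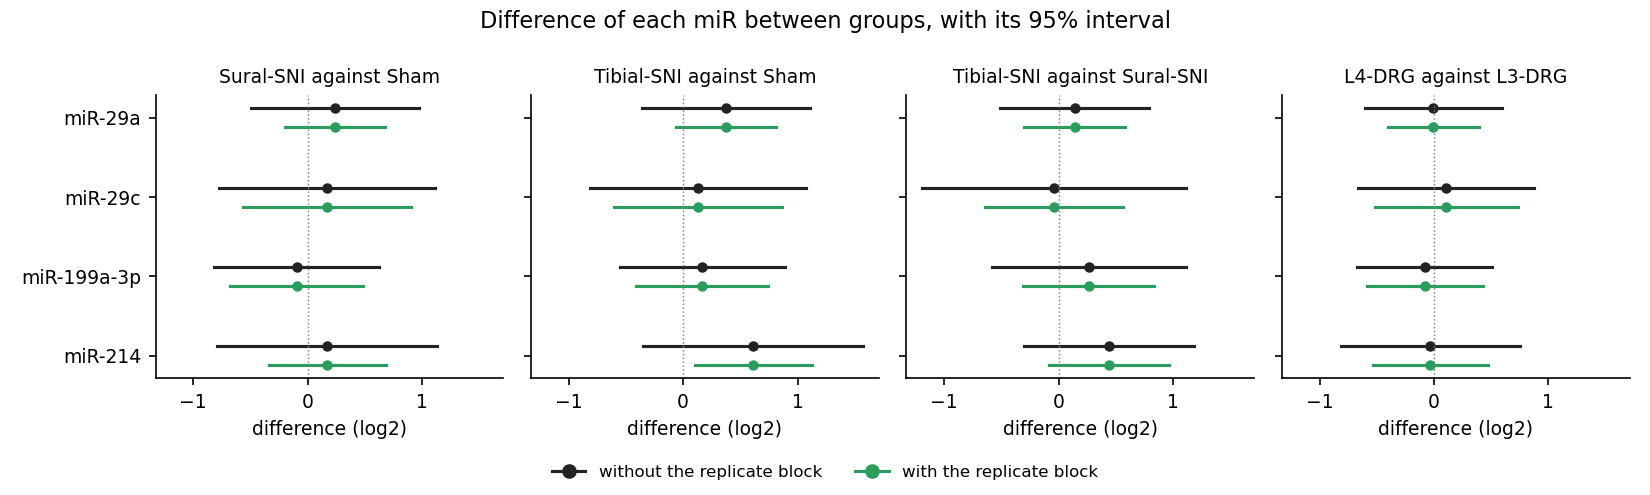
Difference of each miR (log2, points) with its 95% interval from limma (lines) in 4 comparisons, without (black) and with (green) the replicate block. All intervals contain 0 except that of miR-214 in Tibial-SNI against Sham with the block, 0.10 to 1.13.

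In the comparison of the ganglia over the 3 surgeries, L4-DRG minus L3-DRG was −0.00 for miR-29a, 0.11 for miR-29c, −0.08 for miR-199a-3p and −0.03 for miR-214. The limma adjusted p was 0.987 for each, and 0 of the 154 miRs (0%) passed, with 3 (1.95%) at an unadjusted p under 0.05. The widest 95% interval was that of miR-214, −0.82 to 0.75, and the narrowest that of miR-199a-3p, −0.67 to 0.51. Likewise, 0 of 154 passed in each SNI group against Sham, and an unadjusted p under 0.05 was seen for 0 miRs in Sural-SNI and 1 in Tibial-SNI. Of the other tests of a difference between the ganglia, that of miR-214 gave 0.64 (SE 0.95) in Sural-SNI and 0.41 (SE 0.95) in Tibial-SNI, and that of miR-199a-3p gave 0.52 (SE 0.70) and −0.07 (SE 0.70).

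The miR-214 and miR-199a-3p of the genes Mir214 and Mir199a2 come from 1 primary RNA. However, the assay of miR-199a-3p also reads miR-199b-3p, which comes from another gene, and further genes for miR-199a-3p itself were not looked for. The Ct values of the 2 assays did not keep a fixed distance. miR-214 crossed the threshold 1.82 ± 0.53 cycles after miR-199a-3p in Sham, 1.55 ± 0.38 in Sural-SNI and 1.37 ± 0.42 in Tibial-SNI (SD, n = 4), and the single arrays ran from 1.02 to 2.41. The distance from miR-29a to miR-214 was 5.001 ± 0.48, 5.07 ± 0.44 and 4.76 ± 0.21. Over the 3 pairs of miRs and the 3 comparisons of groups, 9 exact permutation tests (two-sided) gave p-values of 0.229 to 0.857, and 0.643 to 0.857 after adjustment over the 9. The lowest was for miR-214 against miR-199a-3p in Tibial-SNI and Sham, a difference of −0.45 cycles.

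**Figure D5:**
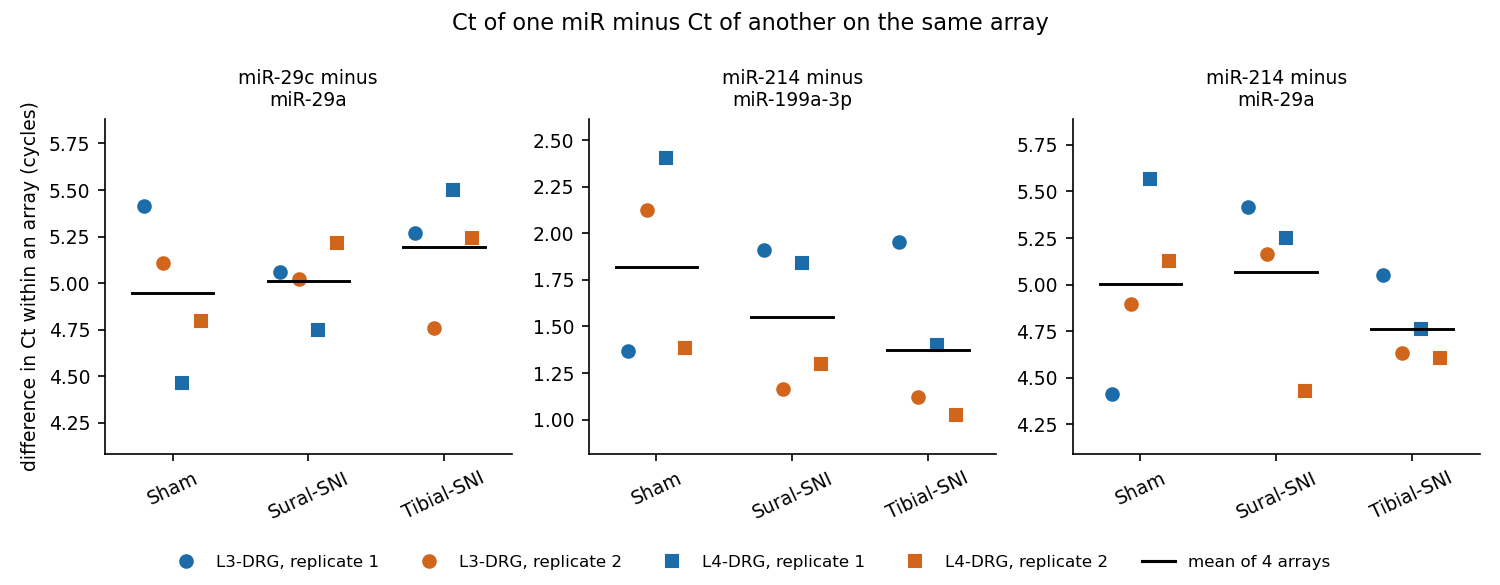
Ct of one miR minus Ct of another on the same array, in cycles, for 3 pairs of miRs by surgery (circles, L3-DRG; squares, L4-DRG; blue, replicate 1; orange, replicate 2; line, mean of 4 arrays). The vertical axes cover the same span, the groups overlap in each pair, and the mean distance of miR-214 from miR-199a-3p is 1.82, 1.55 and 1.37 cycles.

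How the 4 miRs varied together was described by Pearson's r over the 12 arrays, after the mean of the 3 arrays of the same DRG level and number was taken off. These values share the reference assays and the RNA input of an array, and the median r of a member with the other 153 miRs was 0.438 for miR-29a, 0.311 for miR-29c, 0.106 for miR-199a-3p and 0.0736 for miR-214. miR-29a and miR-29c, with the shared seed, had r = 0.656, and miR-214 and the assay shared by miR-199a-3p and miR-199b-3p had r = 0.304. In rank among the 153 miRs the latter was 43 for miR-199a-3p and 37 for miR-214. Against the mean of all miRs the 2 values were 0.211 and 0.326.

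Across the pairs, miR-29c and miR-214 had r = −0.310, and −0.658 against the mean of all miRs. Their values went apart by ganglion, since the L4-DRG log2(fold change) of both SNI groups was below 0 for miR-29c and above 0 for miR-214 on 4 of 4 arrays (14.9% and 8.44% of all miRs). These r were over 12 arrays and no test was made of them.

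The miRs with the most similar pattern were miR-331-3p (r = 0.933), miR-103 (0.900) and miR-28 (0.890) for miR-29a. For miR-29c they were miR-376c (0.910), miR-127 (0.848) and miR-31 (0.847). For miR-199a-3p they were the endothelial miR-126-3p (0.751), miR-20b (0.711) and let-7e (0.707). For miR-214 they were miR-195 (0.793), miR-143, which is abundant in vascular smooth muscle (0.779), and miR-425 (0.767).

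The cells that hold these miRs could not be separated, so markers of other cell types are given beside them. Vascular smooth muscle was represented by miR-143 and miR-145, 2 of 2 markers, whose mean −ΔCt was −3.21 to −1.58 on the Sham arrays, −3.45 to −1.12 in Sural-SNI and −2.20 to −0.74 in Tibial-SNI. The endothelial miR-126-3p and miR-126-5p, 2 of 2, had means of −1.48 to 0.86, −1.19 to 0.86 and −0.64 to 1.06. The skeletal muscle miRs, miR-1, miR-133a and miR-133b (3 of 4), had means of −3.36 to −2.75, −3.79 to −3.20 and −3.63 to −0.59. The miR-1 assay used is the one with the mouse name, with a mean Ct of 30.8. An assay of miR-1 with the rat name, left out here, had a mean Ct of 27.6. Tibial-SNI minus Sural-SNI was 0.57 (SE 0.53) for the mouse name and 1.43 (SE 0.90) for the rat name. The limma differences of Tibial-SNI from Sural-SNI were above 0 for miR-214, for 93 of the 154 miRs and for all 7 of these markers, from 0.38 for miR-126-5p to 1.61 for miR-133b, and 0 of the 7 passed an adjusted p of 0.05 (3 had an unadjusted p under 0.05, as had 2.6% of all miRs). The 3 were miR-133b, miR-143 and miR-145, which the paper had already reported as higher in Tibial-SNI on these same arrays. The part of these cells in the values of miR-214 was not tested.

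Leukocyte miRs (4 of 5: miR-142-3p, miR-150, miR-155 and miR-223) had means of −3.77 to −1.74 in Sham, −2.90 to −1.46 in Sural-SNI and −2.69 to −1.80 in Tibial-SNI. For sensory neurons (2 of 4) the ranges were −0.48 to −0.13, −1.16 to 0.06 and −0.73 to 0.27, and for red blood cells (miR-486, 1 of 3) −2.77 to −2.001, −3.20 to −0.69 and −3.32 to −0.71. For Schwann and satellite glia the 1 of 3 markers present, miR-338-3p, was at −7.57 to −3.25, −6.10 to −3.22 and −10.3 to −2.97. The limma differences of Tibial-SNI from Sural-SNI were −1.02 for miR-338-3p, −0.14 for miR-486, −0.16 for miR-183 and 0.29 for miR-182. For the leukocyte miRs 3 of 4 were above 0, between −0.51 for miR-142-3p and 0.32 for miR-223. None of these 8 had an unadjusted p under 0.05.

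Other miRs linked to matrix and fibrosis were taken as a list of 19, of which 13 were present: miR-24, miR-30a to miR-30e, miR-133a, miR-133b, miR-143, miR-145, miR-192, miR-200c and miR-155. In Tibial-SNI against Sural-SNI 11 of the 13 were above 0, as were 93 of the 154 miRs, with a median of 0.30 against 0.10 over all miRs. None of the 13 passed an adjusted p of 0.05, and 3 had an unadjusted p under 0.05, as had 4 of the 154 (2.6%). miR-133b (1.61, SE 0.56) and miR-143 (1.07, SE 0.36) were the highest and miR-200c (−0.27, SE 0.31) the lowest, with adjusted p-values of 0.983, 0.983 and 0.995. miR-133b acts on connective tissue growth factor, and miR-200c on the factors that drive the epithelial to mesenchymal transition.

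Against Sham, 12 of the 13 and 125 of the 154 miRs were above 0 in Tibial-SNI, with medians of 0.28 and 0.23. In Sural-SNI these were 5 of the 13 and 106 of the 154, with medians of −0.05 and 0.15. miR-30e, which is close to miR-29a in the steadiness of its level, was at 0.02 in Sural-SNI and 0.23 in Tibial-SNI. Between the ganglia 7 of the 13 and 75 of the 154 were higher in L4-DRG (medians 0.02 and −0.01). None of the 13 passed an adjusted p of 0.05 in these 3 comparisons, and 1 had an unadjusted p under 0.05, in the comparison of ganglia.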

How the data were processed

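The 12 arrays were TaqMan rodent microRNA cards run for 40 cycles by the authors, who used no Ct limit, kept miRs detected in every sample and deposited raw Ct values. The authors deposited as well linear fold changes (ratios, 2 to the power of −ΔΔCt) of each SNI array against Sham, with ExpressionSuite ΔCt values. Of the 160 wells 154 were miRs and 6 were reference wells (4 of MammU6, averaged first). −ΔCt and log2(fold change) were recomputed, and 32 of 32 values of the 4 miRs came within 0.01 of the deposited fold changes on the log2 scale.

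limma 3.58.1 (R 4.3.3) was run on all 154 miRs with Benjamini-Hochberg adjustment over them: on the 8 log2(fold change) arrays for Tibial-SNI against Sural-SNI, and on −ΔCt of all arrays with the DRG level or the surgery as a covariate otherwise. The one-tailed threshold of 0.09 was the study's, and the one-tailed p was taken on the side of each difference. Ct values have no count depth, and the number of arrays limits the precision. The fits were tried on simulated data with independent noise and planted shifts larger than any group difference given here for the 4 miRs. That trial does not show what the fits can detect at smaller differences. Figures were drawn with matplotlib 3.10.9.

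The labels number the replicates. Deviations from the group means correlated at 0.465 to 0.810 between arrays of the same level and number. Between arrays of the same number and the other level r was 0.542 to 0.745, and between numbers −0.789 to −0.511. Deviations within a group cancel, so a shift between the numbers by itself makes r negative between them. The values show a shift by replicate number and do not establish a pairing by level and number. The number was used in a block in a second fit. Where the shift comes from is not given in the sources used here.

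The 4 miRs and all lists were chosen with earlier results of these data known. The text names the 4 miRs, the reference assays, the 3 miRs most similar to each and the members of the lists; miR-19b was added after its spread was seen. Alternatives were other references, a Ct limit of 35, the replicate block, a variance trend, other Sham terms, a one-sample test, a test without moderation, permutation tests, each replicate number alone and leaving out each array. The values within each replicate number, the SD around the mean of all miRs and the permutation tests against Sham or on the mean of all miRs were added after the data were seen.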

Additional observations from a re-analysis of the deposited data

Results flagged for a closer look

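miR-29c was singled out because its log2(fold change) had opposite signs in the 2 ganglia in both SNI groups: every L3-DRG array was above 0 and every L4-DRG array below. The means were 0.71 in L3-DRG and −0.37 in L4-DRG of Sural-SNI, and 0.85 and −0.59 in Tibial-SNI, against the same 4 Sham arrays. Taken against the mean of all miRs they were 0.38 and −0.35, and 0.39 and −0.60. The test of the difference between ganglia did not pass after adjustment with or without the replicate block (lowest limma adjusted p = 0.312). A test of the largest gap against the range flagged no array in 41 sets of 4 values. Sets of 4 that mix the 2 replicate numbers leave this test little power. Leaving out a single array did move the miR-29c differences, as given above.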

How the results depend on the processing

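No difference of the 4 miRs passed an adjusted p of 0.05 under any alternative run: of 304 values without an array left out 279 kept their direction and 25 changed sign (smallest adjusted p 0.312), and of 336 with an array left out 293 kept it and 43 changed sign (smallest adjusted p 0.855). The replicate block moved the count of miRs past the one-tailed threshold in Tibial-SNI against Sural-SNI from 16 to 34. This count was 9 with MammU6 alone, 9 with all arrays in one fit and 5 with the mean of both Sham arrays. With the permutation test on the mean of all miRs it was 10, and without each array in turn 7 to 27. The count with an adjusted p under 0.05 in that comparison was 1, and 0 with each other reference, the Ct limit, the block, the mean of both Sham arrays, all arrays in one fit, both permutation tests, and without any array (0 to 0). The one-tailed p of miR-214 there (0.105) fell under 0.09 with the block (0.0415), U87 alone (0.0846), the methods' test (0.0884), both permutation tests (0.0714 each) and 3 of 12 fits without an array, and was 0.285 with MammU6 alone. The block changed no call of the 4 miRs at an adjusted p of 0.05. It took the unadjusted p under 0.05 for miR-214 in Tibial-SNI against Sham (0.186 to 0.0243) and for miR-29c in the difference between the ganglia (0.217 to 0.0431 in Sural-SNI, 0.112 to 0.0142 in Tibial-SNI).

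For Tibial-SNI against Sural-SNI, miR-29a was −0.015 with MammU6, and miR-29c was 0.023 with snoRNA135, 0.050 with U87, 0.037 with both and 0.30 within replicate 2. For Sural-SNI against Sham, miR-29c was −0.065 within replicate 2 and miR-199a-3p 0.013 within replicate 1. For Tibial-SNI against Sham, the mean of all miRs gave −0.11 for miR-29c and −0.069 for miR-199a-3p, also in the permutation test, and miR-199a-3p was −0.012 within replicate 2. For L4-DRG against L3-DRG, MammU6 gave 0.18 for miR-29a, 0.10 for miR-199a-3p and 0.15 for miR-214, snoRNA135 gave −0.068 for miR-29c, the mean of all miRs gave 0.024 for miR-29a, and replicate 2 alone gave 0.054 for miR-29a, −0.069 for miR-29c and 0.23 for miR-214. For the effect of Tibial-SNI in L4-DRG minus L3-DRG, the mean of all miRs gave 0.0060 for miR-29a and 0.38 for miR-199a-3p, which was 0.19 with snoRNA135 and 0.076 with snoRNA135 and U87. For Tibial-SNI minus Sural-SNI between the ganglia, MammU6 gave −0.21 for miR-29a. Of the Ct differences, miR-29c minus miR-29a was −0.12 in Tibial-SNI minus Sural-SNI within replicate 2 and −0.034 in Sural-SNI minus Sham within replicate 1, and miR-214 minus miR-29a was −0.21 in Sural-SNI minus Sham within replicate 2.

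Against the mean of all miRs, r was 0.211 for miR-29a with miR-29c, −0.437 for miR-29a with miR-199a-3p (0.128 before), 0.132 for miR-29a with miR-214 (0.299 before), −0.364 for miR-29c with miR-199a-3p (−0.0389 before), −0.658 for miR-29c with miR-214 and 0.326 for miR-199a-3p with miR-214.

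With each array left out in turn, miR-29a ran from 0.021 to 0.28 in Tibial-SNI against Sural-SNI, miR-214 from 0.27 to 0.62, miR-29c from −0.28 to 0.27 and miR-199a-3p from −0.0067 to 0.46. In Sural-SNI against Sham, miR-29a ran from 0.042 to 0.44, miR-29c from −0.18 to 0.41, miR-199a-3p from −0.33 to 0.12 and miR-214 from −0.14 to 0.38. In Tibial-SNI against Sham, miR-29a ran from 0.18 to 0.58, miR-29c from −0.22 to 0.40, miR-199a-3p from 0.0092 to 0.38 and miR-214 from 0.32 to 0.80. Between the ganglia, miR-29a ran from −0.14 to 0.090, miR-29c from −0.13 to 0.31, miR-199a-3p from −0.23 to 0.061 and miR-214 from −0.24 to 0.16. For the effect of Sural-SNI in L4-DRG minus L3-DRG, miR-29a ran from −0.89 to −0.12, miR-29c from −1.59 to −0.57, miR-199a-3p from 0.028 to 1.02 and miR-214 from −0.055 to 1.33. For that of Tibial-SNI, miR-29a ran from −0.83 to −0.058, miR-29c from −1.94 to −0.92, miR-199a-3p from −0.56 to 0.43 and miR-214 from −0.20 to 1.01. For Tibial-SNI minus Sural-SNI between the ganglia, miR-29a ran from −0.24 to 0.36, miR-29c from −0.86 to 0.15, miR-199a-3p from −1.01 to −0.17 and miR-214 from −0.93 to 0.46. The Ct differences whose sign changed were those in Sural-SNI minus Sham, where miR-29c minus miR-29a ran from −0.10 to 0.22 and miR-214 minus miR-29a from −0.13 to 0.28. The causes were not tested.

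The number of arrays, 4 a group with 2 in each ganglion, limits the precision of these values. Ct values hold no read depth, and MammU6 did not shift with the other reference assays between replicate numbers.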
